A study of Mus musculus with 24 samples.

Results

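The genes described here are 42 genes of the response to low oxygen and of glycolysis, picked out by a list of symbols in the platform annotation, with no threshold on a measured value. They are the oxygen sensors and transcription factors of the pathway, the glucose and lactate transporters, the enzymes of glycolysis with the pyruvate dehydrogenase kinase Pdk1, the secreted factors Vegfa and Adm, 2 carbonic anhydrases, 2 collagen prolyl hydroxylases and 8 other targets of hypoxia. On the array 60 probe sets named 1 of them, and 38 genes had a probe set that named them alone, among 22180 genes measured in that way. Aldoa and Ankrd37 were named only by probe sets that also name another gene and were counted apart. Gpi1 and Eno1 are not analysed here, because the annotation used pairs no probe set with them. Each gene was represented by its brightest probe set with 1 symbol, and levels are the deposited log2 expression values.

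RNA came from 2 layers of the proximal tibial growth plate of mice at 3 days of age, the proliferative zone (PZ), where chondrocytes divide in columns, and below it the hypertrophic zone (HZ), where they enlarge, on 24 arrays, 6 for each zone and genotype. By the methods of the study both groups carried Col2-cre, which is active in cartilage, and lacked Ezh1 (Ezh1-/-), on a mixed background. The animals called wild-type were Ezh2+/+ and the Ezh1/2 mice were Ezh2 fl/fl, so the comparison between them is one of Ezh2 in cartilage, and the labels call the second group Ezh2 KO. Each array held 1 zone of 1 animal, dissected by laser capture, and the RNA was amplified before hybridization. By the methods 12 mice gave the 24 arrays, so PZ and HZ arrays share animals, which the zone tests below leave out of account because the labels do not say which arrays belong to 1 animal. With the replicate number as a random block the zone counts were 6 higher and 20 lower in wild-type and 6 higher and 22 lower in Ezh1/2 mice, close to those given below. Over all genes 21.6% were then higher and 19% lower in wild-type, and 19.1% and 17.7% in Ezh1/2 mice.

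Ezh2 was lower on all 6 Ezh1/2 arrays than on all 6 wild-type arrays of the PZ (5.85 to 6.67 against 6.88 to 7.27), with a limma adjusted p of 0.0852. In the HZ it was 6.20 to 6.61 on the arrays labelled Ezh1/2 and 5.88 to 6.6 on the wild-type arrays, so the targeted gene did not bear out the labels there and the groups are named below as labelled. Whether this probe set lies in the deleted part of Ezh2 is not given in the sources used here. By quantitative PCR of zones taken by laser capture, the study reported Ezh2 far below wild-type in every zone, the HZ included. It also reported loss of Ezh2 from cartilage by immunostaining. All 5 measured hypertrophic markers rose and all 5 measured markers of dividing cells fell from PZ to HZ in both genotypes, and Col10a1, the collagen of hypertrophic chondrocytes, was at 12.07 to 12.80 in the HZ against 7.87 to 10.07 in the PZ. The HZ arrays also spanned a narrower range of values, with an interquartile range of 1.35 to 1.78 against 1.79 to 2.02 in the PZ.

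When oxygen is low, the prolyl hydroxylases Egln1 and Egln3 stop marking the HIF alpha subunits, Hif1a and Epas1, for destruction through Vhl. The stabilized subunit pairs with Arnt, binds a short DNA core in its target genes and raises glucose uptake, glycolysis, lactate export and the secretion of Vegfa. Growth plate cartilage holds no blood vessels and its chondrocytes rely on glycolysis, and in mice Hif1a is needed for their survival in the centre of the growth plate. Hypertrophic chondrocytes secrete Vegfa, which draws vessels and the cells that resorb cartilage to the lower border of the HZ.

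The core of the hypoxia response element was searched in the RefSeq promoter windows (GRCm38.p6) of these genes, 250 bases before to 50 bases after each annotated start, as ACGTG or GCGTG on either strand. A window was found for 39 of the 42 genes and 61 windows in all, with none for Epas1, Ndrg1 and Slc2a3. At least 1 match was found in any window of 33 of the 39 genes (84.6%) against 46.7% of all 27025 genes of the table, and at least 2 separate matches in 26 (66.7%) against 19.2%, where matches that overlap count as 1. These shares favour genes with more windows, and all genes together had 32851. Counted by window, 73.8% of the 61 held at least 1 match against 43.8% of all windows. At least 2 separate matches were in 54.1% against 17.3%. A match is a run of letters and not a measured binding site. Both cores contain the letters CG, and the shares were not adjusted for the base composition of the windows. Windows of 6 genes on which the results below turn are printed 5′ to 3′ along the gene, with the matches in capitals. Where a gene has several windows, the one with the most matches is shown, so that the first annotated start of Vegfa, whose window held no match, is left out.
Slc2a1 (chr4:119108495-119108794, plus strand): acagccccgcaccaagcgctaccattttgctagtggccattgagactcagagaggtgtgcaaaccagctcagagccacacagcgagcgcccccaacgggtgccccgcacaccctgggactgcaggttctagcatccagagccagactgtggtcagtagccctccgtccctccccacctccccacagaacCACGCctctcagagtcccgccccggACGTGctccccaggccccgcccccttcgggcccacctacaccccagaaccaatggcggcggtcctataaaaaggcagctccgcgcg
Pgk1 (chrX:106186850-106187149, plus strand): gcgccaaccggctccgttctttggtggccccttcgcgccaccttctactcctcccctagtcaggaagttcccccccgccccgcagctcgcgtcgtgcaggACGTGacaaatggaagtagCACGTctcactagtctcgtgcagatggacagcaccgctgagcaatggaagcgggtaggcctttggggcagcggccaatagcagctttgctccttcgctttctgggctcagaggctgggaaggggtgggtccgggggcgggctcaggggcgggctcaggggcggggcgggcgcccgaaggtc
Ldha (chr7:46845554-46845853, plus strand): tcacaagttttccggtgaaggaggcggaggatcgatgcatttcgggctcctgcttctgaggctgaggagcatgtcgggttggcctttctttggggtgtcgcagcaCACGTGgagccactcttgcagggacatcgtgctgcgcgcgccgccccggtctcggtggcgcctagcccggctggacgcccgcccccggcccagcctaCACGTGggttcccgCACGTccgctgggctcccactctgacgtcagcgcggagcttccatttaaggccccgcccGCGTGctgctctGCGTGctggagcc
Pdk1 (chr2:71872974-71873273, plus strand): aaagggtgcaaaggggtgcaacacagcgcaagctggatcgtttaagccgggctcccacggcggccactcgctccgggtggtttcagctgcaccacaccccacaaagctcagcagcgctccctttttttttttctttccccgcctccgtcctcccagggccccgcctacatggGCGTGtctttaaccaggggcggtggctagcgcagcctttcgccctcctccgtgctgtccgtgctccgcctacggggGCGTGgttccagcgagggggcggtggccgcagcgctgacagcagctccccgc
Vegfa (chr17:46025114-46025413, minus strand): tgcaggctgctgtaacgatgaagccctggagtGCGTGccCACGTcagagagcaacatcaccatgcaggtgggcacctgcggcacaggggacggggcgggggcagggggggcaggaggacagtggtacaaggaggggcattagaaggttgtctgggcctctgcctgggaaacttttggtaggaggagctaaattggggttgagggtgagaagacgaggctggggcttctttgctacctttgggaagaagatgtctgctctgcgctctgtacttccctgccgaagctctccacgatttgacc
Adm (chr7:110627407-110627706, plus strand): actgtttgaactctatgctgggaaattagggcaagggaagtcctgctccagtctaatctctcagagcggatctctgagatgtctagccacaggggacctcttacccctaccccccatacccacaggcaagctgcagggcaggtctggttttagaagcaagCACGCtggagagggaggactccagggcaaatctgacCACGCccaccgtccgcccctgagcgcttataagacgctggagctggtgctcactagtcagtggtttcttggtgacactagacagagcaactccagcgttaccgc
Ldha, which makes lactate, held 5 separate matches and the other 5 genes 2 each. Those of Vegfa lay at an annotated start inside the gene (46016993 to 46032377), and the window of its first start held 0. Both matches of Vegfa lie in a stretch that reads without a stop codon as part of the Vegfa protein, so they fall in coding sequence. Vegfa is counted above among the genes with matches through this window alone. Of the 6 genes shown, 2 rose and 3 fell from PZ to HZ in both genotypes, and the glucose transporter Slc2a1 behaved as described below.

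Most of the genes were lower in the HZ than in the PZ. In wild-type mice 20 of the 38 measured genes fell from PZ to HZ and 5 rose, with 13 not passing the test (limma over all 24 arrays, adjusted p under 0.05 over all probe sets). Over all genes 18.1% fell and 19.3% rose in the same contrast. The median difference of the 38 genes was -0.56 on the log2 scale against 0.09 over all genes. In Ezh1/2 mice 22 fell, 6 rose and 10 did not pass, against 16.7% and 17.0% of all genes, with a median of -0.69 against 0.06. Of the genes measured here 34 lie above the median of all probe sets, and among all genes above it 32.5% fell and 17.4% rose in wild-type and 28.8% fell and 17.2% rose in Ezh1/2 mice. The median difference of all genes above it was -0.13 in wild-type and -0.10 in Ezh1/2 mice. In such bulk samples fewer cells of a type and less RNA per cell cannot be told apart.

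The 2 genotypes shared 19 of these falls, which were 19 of 20 in wild-type and 19 of 22 in Ezh1/2 mice, and 5 rises, which were Epas1, Vegfa, Adm, Ddit4 and Mxi1. Hk1 fell in wild-type mice and did not pass in Ezh1/2 mice, and Egln3, Slc2a1 and Ak4 fell and Kdm3a rose in Ezh1/2 mice and did not pass in wild-type. None of these genes passed the test of the difference between the genotypes, which is given for each named gene at the end. With quantile normalization of the deposited values across all arrays, 8 genes rose and 17 fell in wild-type and 6 rose and 19 fell in Ezh1/2 mice, and the medians were -0.44 and -0.46. In wild-type the falls of Hk2, Ldha and Bnip3 were then lost, and Vhl, Slc2a1 and Kdm3a were called higher. The falls of Egln3, Slc2a1 and Vldlr were lost in Ezh1/2 mice. After the same step 15.6% of all genes rose and 14.5% fell in wild-type, with a median of 0.04. In Ezh1/2 mice 16.9% rose and 13.7% fell, with a median of 0.05.

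**Figure D1:**
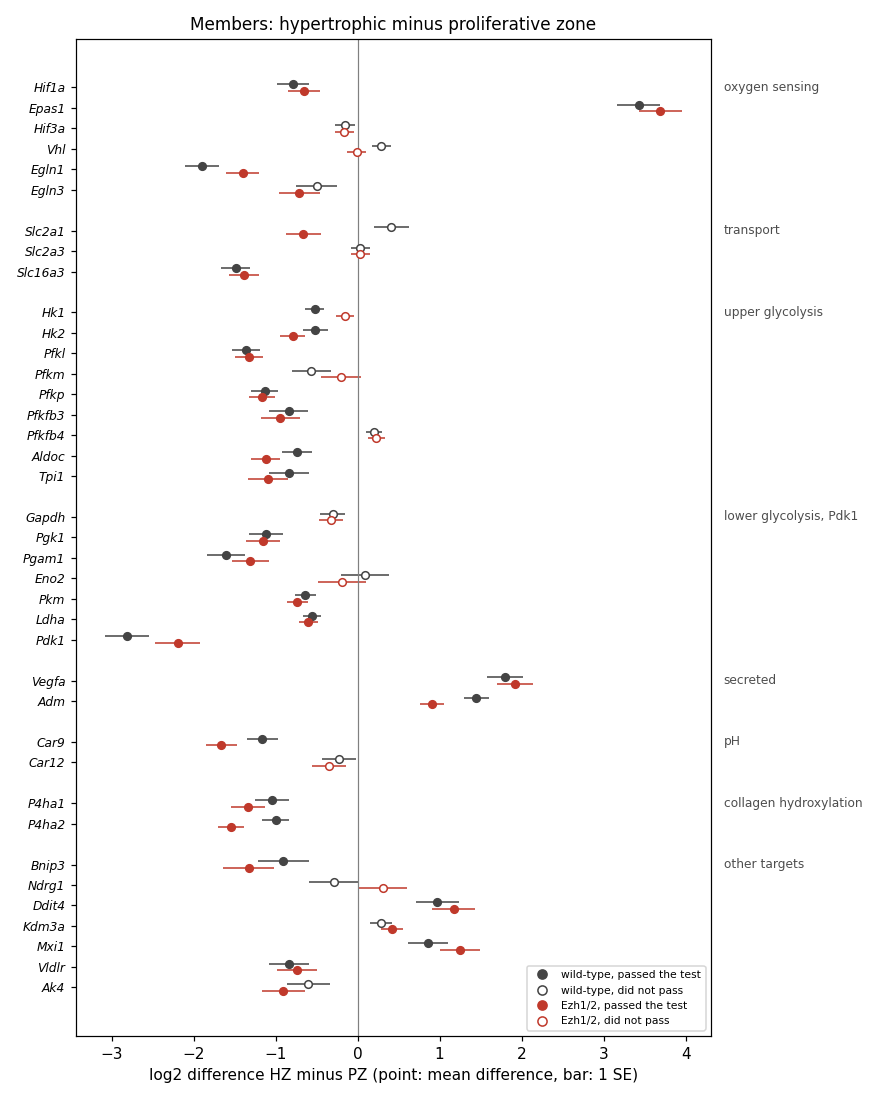
Difference between the zones, HZ minus PZ on the log2 scale, for the 38 measured genes grouped by role, in wild-type (grey) and Ezh1/2 mice (red), with 6 arrays in each zone and genotype. Points are mean differences, bars 1 standard error and filled points passed the limma test, and most points lie left of 0, with Epas1, Vegfa, Adm, Ddit4 and Mxi1 to its right.

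The HIF subunits moved in opposite directions. Epas1, which encodes HIF-2 alpha, had a lowest, median and highest level of 3.86, 4.27 and 5.0 in the wild-type PZ and of 6.42, 7.91 and 8.39 in the wild-type HZ. It was at 4.27, 4.38 and 4.51 in the Ezh1/2 PZ and at 7.34, 8.21 and 8.68 in the HZ. No HZ array overlapped a PZ array in either genotype. The rise was 3.43 on the log2 scale (standard error 0.26, 10.8-fold, limma adjusted p = 1.48e-09) in wild-type and 3.69 (12.9-fold, adjusted p = 5.63e-10) in Ezh1/2 mice. Epas1 is also known for its high expression in endothelial cells. The 7 endothelial markers measured all rose with it in both genotypes, with a median rise of 1.38 and 2.03, and the mean of their levels was 3.68 to 4.91 on the PZ arrays and 4.45 to 6.59 on the HZ arrays. The lowest HZ array of Epas1, wild-type number 1 at 6.42, was also the lowest of this list at 4.45. The same array had the narrowest interquartile range of all arrays (1.35). Its mean of the hypertrophic markers, 9.71, was the lowest of the wild-type HZ. The part of endothelial cells in the rise of Epas1 was not tested.

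Hif1a, which encodes the other alpha subunit, fell by 0.78 (adjusted p = 0.00371) in wild-type and by 0.66 (adjusted p = 0.0137) in Ezh1/2 mice. Its wild-type levels were 7.78, 8.49 and 8.61 in the PZ and 6.74, 7.83 and 8.06 in the HZ, so the lowest PZ array lay within the HZ range. A second probe set of Hif1a fell by 0.56 and by 0.93. Egln1, the main hydroxylase that inactivates the HIF alpha subunits, fell by 1.90 (3.72-fold, adjusted p = 2.13e-07) and by 1.40 (2.65-fold, adjusted p = 1.4e-05). It was at 6.77, 7.65 and 7.84 in the wild-type PZ and at 5.16, 5.67 and 6.05 in the wild-type HZ, with no overlap. Egln3, a hydroxylase that is itself a target of hypoxia, had differences of -0.50 (adjusted p = 0.127) and -0.71 (adjusted p = 0.0345). Vhl, which takes the hydroxylated subunits to degradation, had 0.29 and -0.01 and Hif3a, an alpha subunit that can counter the others, -0.15 and -0.16, and none of these passed the test.

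The 3 transporters differed from each other. Slc16a3, which exports lactate, fell by 1.49 (2.80-fold, adjusted p = 1.08e-06) in wild-type and by 1.39 (2.61-fold, adjusted p = 2.9e-06) in Ezh1/2 mice. It was at 6.06, 6.58 and 6.66 in the wild-type PZ and 4.83, 4.96 and 5.21 in the wild-type HZ, so the zones were apart. A probe set that names Slc16a3 with another gene did not differ. Slc2a1, the main glucose transporter of these cells, was at 8.44, 9.12 and 9.34 in the wild-type PZ and at 9.11, 9.45 and 9.69 in the wild-type HZ. It was at 8.38, 9.02 and 9.58 in the Ezh1/2 PZ and at 7.83, 8.15 and 8.91 in the HZ. Its zone difference was 0.41 (adjusted p = 0.134) in wild-type and a fall of 0.66 (adjusted p = 0.02) in Ezh1/2 mice, whereas its second probe set had 0.11 and -0.22 (adjusted p = 0.651 and 0.378). Both values sit near the threshold, since after quantile normalization the first was 0.65 (adjusted p = 0.017) and the second -0.42 (adjusted p = 0.123). Slc2a3, the glucose transporter of neurons, was at 3.55 to 4.29 over all arrays, with differences of 0.03 and 0.03.

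Of the 15 glycolytic enzymes measured, 11 fell from PZ to HZ in wild-type and 10 in Ezh1/2 mice, and none rose. Over all genes 18.1% fell in wild-type and 16.7% in Ezh1/2 mice, and among genes above the median of all probe sets 32.5% and 28.8%. The mean of their levels was 6.51 to 6.94 on the wild-type PZ arrays and 5.90 to 6.35 on the wild-type HZ arrays, and 6.43 to 6.92 and 5.75 to 6.19 in Ezh1/2 mice, with no overlap of the zones. In the upper part of the pathway Pfkl and Pfkp, subunits of the phosphofructokinase that commits glucose to glycolysis, fell by 1.36 and 1.13 in wild-type (adjusted p = 2.13e-06 and 9.52e-06) and by 1.33 and 1.16 in Ezh1/2 mice (adjusted p = 3.09e-06 and 6.98e-06). Pfkl was at 6.35, 7.05 and 7.22 in the wild-type PZ and at 5.17, 5.66 and 5.88 in the wild-type HZ. The third subunit, Pfkm, had -0.56 and -0.20 and did not pass. Pfkfb3, which makes the activator of phosphofructokinase, fell by 0.84 and 0.94, and its relative Pfkfb4 had 0.20 and 0.23 with no call.

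Hk2, the inducible hexokinase, fell by 0.52 (adjusted p = 0.0128) and 0.79 (adjusted p = 0.000383). In wild-type its fall did not pass after quantile normalization (-0.30, adjusted p = 0.156). Hk1, the hexokinase found in most cells, fell by 0.53 in wild-type (adjusted p = 0.000845) and had -0.16 in Ezh1/2 mice (adjusted p = 0.29). The aldolase Aldoc fell by 0.74 and 1.12, and triosephosphate isomerase, Tpi1, by 0.84 and 1.09. The probe set that names Aldoa together with Aldoart1 was also lower in the HZ, by 0.48 and 0.51 (adjusted p = 0.0485 and 0.039).

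In the lower part of glycolysis Pgk1, which makes the first ATP of the pathway, was at 8.07, 8.89 and 9.14 in the wild-type PZ and at 7.31, 7.76 and 8.01 in the wild-type HZ. In Ezh1/2 mice it was at 8.37, 8.45 and 9.03 in the PZ and at 6.61, 7.56 and 8.06 in the HZ. The zones did not overlap in either genotype, and the differences were -1.12 (2.18-fold, adjusted p = 0.000229) and -1.15 (2.23-fold, adjusted p = 0.000173). Ldha was at 6.01, 6.27 and 6.45 in the wild-type PZ and at 5.44, 5.67 and 5.93 in the wild-type HZ, a fall of 0.55 (1.47-fold, adjusted p = 0.000624) that did not pass after quantile normalization (-0.31, adjusted p = 0.055). In Ezh1/2 mice it was at 5.88, 6.19 and 6.55 in the PZ and at 5.33, 5.59 and 5.77 in the HZ, and fell by 0.60 (adjusted p = 0.00027).

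Pkm, pyruvate kinase, fell by 0.64 and 0.73. Pgam1, phosphoglycerate mutase, fell by 1.61 (adjusted p = 1.09e-05) and 1.31 (adjusted p = 0.000136), yet its second probe set had 0.09 and -0.02, so its fall rests on 1 of 2 probe sets. Its brightest probe set was at 8.28, 9.16 and 9.30 in the wild-type PZ and at 6.56, 7.44 and 8.13 in the wild-type HZ. Gapdh, glyceraldehyde-3-phosphate dehydrogenase, had -0.31 and -0.33 with no call, and is uncertain because 8 further probe sets name it together with a pseudogene. Eno2, the enolase of neurons, had 0.09 and -0.19.

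Pdk1, which inactivates pyruvate dehydrogenase and so keeps pyruvate out of the mitochondria, had the largest fall of the 38 genes in both genotypes. It was at 7.67, 8.19 and 8.44 in the wild-type PZ and at 4.66, 5.37 and 5.77 in the wild-type HZ, and at 7.52, 7.91 and 8.62 and at 4.70, 5.90 and 6.62 in Ezh1/2 mice. The zones were apart in both genotypes, and the differences were -2.81 (7.02-fold, adjusted p = 4.28e-08) and -2.19 (4.58-fold, adjusted p = 1.56e-06). Its second probe set fell by 1.60 and 1.69.

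The secreted factors rose. Vegfa, which draws blood vessels into cartilage, was at 7.36, 7.74 and 8.20 in the wild-type PZ and at 9.06, 9.58 and 9.90 in the wild-type HZ. In Ezh1/2 mice it was at 7.16, 7.51 and 8.47 in the PZ and at 9.32, 9.68 and 10.01 in the HZ. All HZ arrays lay above all PZ arrays, and the rises were 1.80 (3.48-fold, adjusted p = 1.4e-06) and 1.92 (3.79-fold, adjusted p = 5.57e-07). Adm, the vessel-widening peptide adrenomedullin, rose by 1.45 (2.73-fold, adjusted p = 1e-07) and 0.91 (1.88-fold, adjusted p = 5.62e-05). It was at 4.58, 4.69 and 4.99 in the wild-type PZ and at 5.84, 6.18 and 6.53 in the wild-type HZ, and at 4.70, 4.85 and 4.94 and at 5.29, 5.68 and 6.50 in Ezh1/2 mice, with no overlap.

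**Figure D2:**
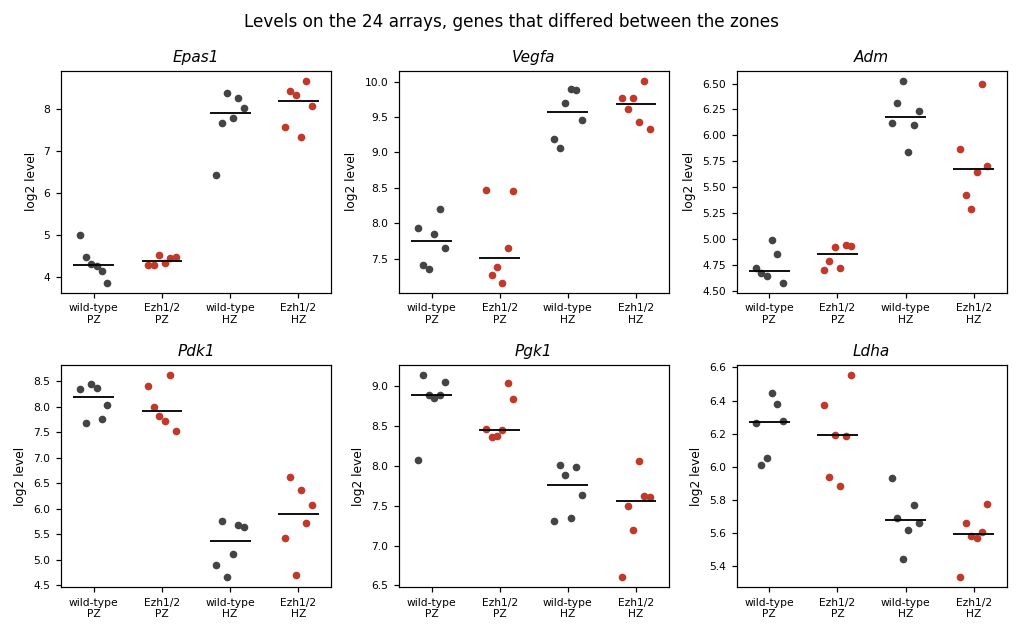
Log2 levels of 6 genes on the 24 arrays, by genotype and zone. Each point is 1 array and each line the median of 6, and in both genotypes every HZ array lies above every PZ array for Epas1, Vegfa and Adm and below every PZ array for Pdk1, Pgk1 and Ldha.

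Among the genes of acid balance and collagen, Car9, the carbonic anhydrase of the cell surface that hypoxia induces, fell by 1.16 (adjusted p = 5.74e-05) and 1.66 (adjusted p = 5.52e-07). It was at 4.78, 5.05 and 5.76 in the wild-type PZ and at 3.78, 3.89 and 4.19 in the wild-type HZ, and its second probe set had -0.17, with no call, in wild-type and fell by 0.56 in Ezh1/2 mice. Car12 had -0.23 and -0.35 and did not pass. P4ha1 and P4ha2, catalytic subunits of the enzyme that hydroxylates proline in collagen, fell by 1.04 and 1.0 in wild-type (adjusted p = 0.00046 and 4.4e-05) and by 1.34 and 1.54 in Ezh1/2 mice (adjusted p = 2.84e-05 and 1.43e-07). P4ha2 was at 7.17, 7.49 and 7.76 in the Ezh1/2 PZ and at 5.22, 6.03 and 6.35 in the HZ.

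The other targets were divided. Ddit4, an inhibitor of mTORC1, rose by 0.97 (adjusted p = 0.00679) and 1.17 (adjusted p = 0.00158), Mxi1, an antagonist of Myc, by 0.86 (adjusted p = 0.00974) and 1.25 (adjusted p = 0.000429), and the histone demethylase Kdm3a had 0.29 (adjusted p = 0.105) and rose by 0.42 (adjusted p = 0.0223). Mxi1 was at 7.99, 8.12 and 8.52 in the wild-type PZ and at 8.59, 9.08 and 9.54 in the wild-type HZ, whereas for Ddit4 the zones overlapped, at 4.70, 4.88 and 5.51 against 5.27, 5.90 and 6.74. A second probe set of Mxi1 rose by 0.41 (adjusted p = 0.0107) and 0.94 (adjusted p = 1.85e-06). Bnip3, a mitochondrial protein that promotes mitophagy, fell by 0.90 (adjusted p = 0.0271) and 1.33 (adjusted p = 0.00206), and the lipoprotein receptor Vldlr by 0.84 and 0.74 (adjusted p = 0.0118 and 0.0253). The mitochondrial adenylate kinase Ak4 had -0.60 (adjusted p = 0.0826) and fell by 0.90 (adjusted p = 0.0121). Ndrg1 had -0.29 and 0.30 with no call, and its second probe set had 0.09 and rose by 0.39 in Ezh1/2 mice (adjusted p = 0.0488). The probe set that names Ankrd37 together with Lrp2bp fell by 0.45 and 0.34.

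Several of these calls were close to the threshold and were lost without 1 array. The fall of Bnip3 in wild-type mice was lost without wild-type PZ number 4 or 5 or wild-type HZ number 1 or 4 (adjusted p up to 0.0739). In Ezh1/2 mice the fall of Slc2a1 was lost without PZ number 6 or HZ number 1 or 2 (up to 0.0587), that of Egln3 without PZ number 5 or 6 or HZ number 3, 4 or 6 (up to 0.0981), that of Vldlr without PZ number 1, 3 or 6 or HZ number 3 or 4 (up to 0.0724), and the rise of Kdm3a without HZ number 3 or 5 (up to 0.0583). No other call among the 38 genes was lost by leaving out 1 array.

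Markers of some other cell types were higher in the HZ. Besides the endothelial list, 5 of 6 osteoclast markers rose in wild-type and 6 of 6 in Ezh1/2 mice, with list means of 3.90 to 5.98 on the PZ arrays and 5.43 to 7.16 on the HZ arrays, and 4 of 6 myeloid markers rose in each genotype. Of the 8 skeletal muscle markers 0 passed in wild-type (median -0.42) and 1 rose in Ezh1/2 mice (median 0.72), of the 6 perichondrium and fibroblast markers 1 and 2 rose (medians -0.18 and 1.2), and of the 5 measured osteoblast markers 2 rose and 1 fell in each genotype. Of the 9 chondrocyte markers 5 fell in wild-type and 7 in Ezh1/2 mice, with a median difference of -0.50 and -0.88. The endothelial, osteoclast, myeloid and chondrocyte lists moved together with the falls of the glycolytic genes and the rises of Vegfa, Adm and Epas1, and their part in them was not tested.

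Other genes of the same pathways rose and fell in similar numbers. Of 19 measured glycolysis genes outside the 42, 4 rose and 3 fell in wild-type and 3 rose and 2 fell in Ezh1/2 mice, with medians of 0.10 and 0.08. Over all genes 19.3% rose and 18.1% fell in wild-type and 17.0% and 16.7% in Ezh1/2 mice. These 19 genes thus did not stand out from all genes, and 9 of them lie above the median of all probe sets. Slc16a1, a second lactate and pyruvate carrier, fell by 1.35 and 1.16, the ADP-dependent glucokinase Adpgk fell by 0.86 and 0.56, and Bpgm, which makes bisphosphoglycerate, rose by 0.47 and 0.77. Of 43 further hypoxia genes 13 rose and 14 fell in wild-type and 18 rose and 15 fell in Ezh1/2 mice. Loxl4, a lysyl oxidase, rose by 3.78 and 3.33 (adjusted p = 5.1e-11 and 4.98e-10), and Hmox1, which degrades haem, by 2.19 and 1.99. Plod2, which hydroxylates lysine in collagen, fell in both genotypes (-2.88 and -3.1, adjusted p = 2.82e-08 and 1.08e-08), and Pygl, a glycogen phosphorylase, by 1.45 and 1.76. Of 8 genes for the entry of pyruvate into mitochondria, Pdp2, the phosphatase that activates pyruvate dehydrogenase, fell by 1.0 and 0.66 (adjusted p = 0.000194 and 0.00836), Pdhx rose by 0.33 in wild-type (adjusted p = 0.0367), and no other gene of this list was called.

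In the PZ no gene passed the test between the genotypes. Of the 38 genes 0 were higher and 0 lower in Ezh1/2 than in wild-type mice (limma within the 12 PZ arrays), against 0.487% and 0.0496% of all genes. At an unadjusted p under 0.05, 1 was higher and 2 were lower, against 4.64% and 3.41% of all genes. The median difference was -0.08 against -0.00 over all genes, and 28 of 38 differences were below 0, as were 51.6% of all genes. The 5 genes with the lowest p were Pfkp (-0.40, adjusted p = 0.305), Pgam1 (-0.42, adjusted p = 0.629), Car9 (0.53, adjusted p = 0.634), Hk1 (-0.19, adjusted p = 0.736) and Egln1 (-0.33, adjusted p = 0.763).

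Pfkp was at 6.47, 6.59 and 7.01 on the wild-type arrays of the PZ and at 5.87, 6.27 and 6.54 on the Ezh1/2 arrays, so the groups overlapped (exact permutation p = 0.00649, two-sided). Car9 was at 5.08, 5.45 and 6.55 on the Ezh1/2 arrays. The level of Pgam1 was 8.28, 8.47 and 9.02, that of Hk1 4.49, 4.79 and 4.93 against 4.71, 4.93 and 5.22, and that of Egln1 6.87, 7.24 and 7.64. The differences of Slc2a1, Vegfa, Pgk1 and Ldha were -0.06, -0.00, -0.23 and -0.05, with standard errors of 0.21, 0.25, 0.18 and 0.12 and groups that overlapped for each.

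In the HZ likewise 0 of 38 genes were higher and 0 lower on the arrays labelled Ezh1/2, against 0.0180% and 0.00451% of all genes. At an unadjusted p under 0.05, 0 were higher and 8 lower, against 3.74% and 3.19% of all genes. These were Slc2a1, P4ha2, Aldoc, Bnip3, Adm, Vhl, Pfkp and Hk2. The second probe sets of Mxi1 and Pgam1, not counted here, had 0.37 and -0.37 (limma unadjusted p = 0.0197 and 0.016, adjusted p = 0.622 and 0.596). The median over the 38 genes was -0.08 against -0.01 over all genes, and 23 of 38 differences were below 0, as were 52.6% of all genes.

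**Figure D3:**
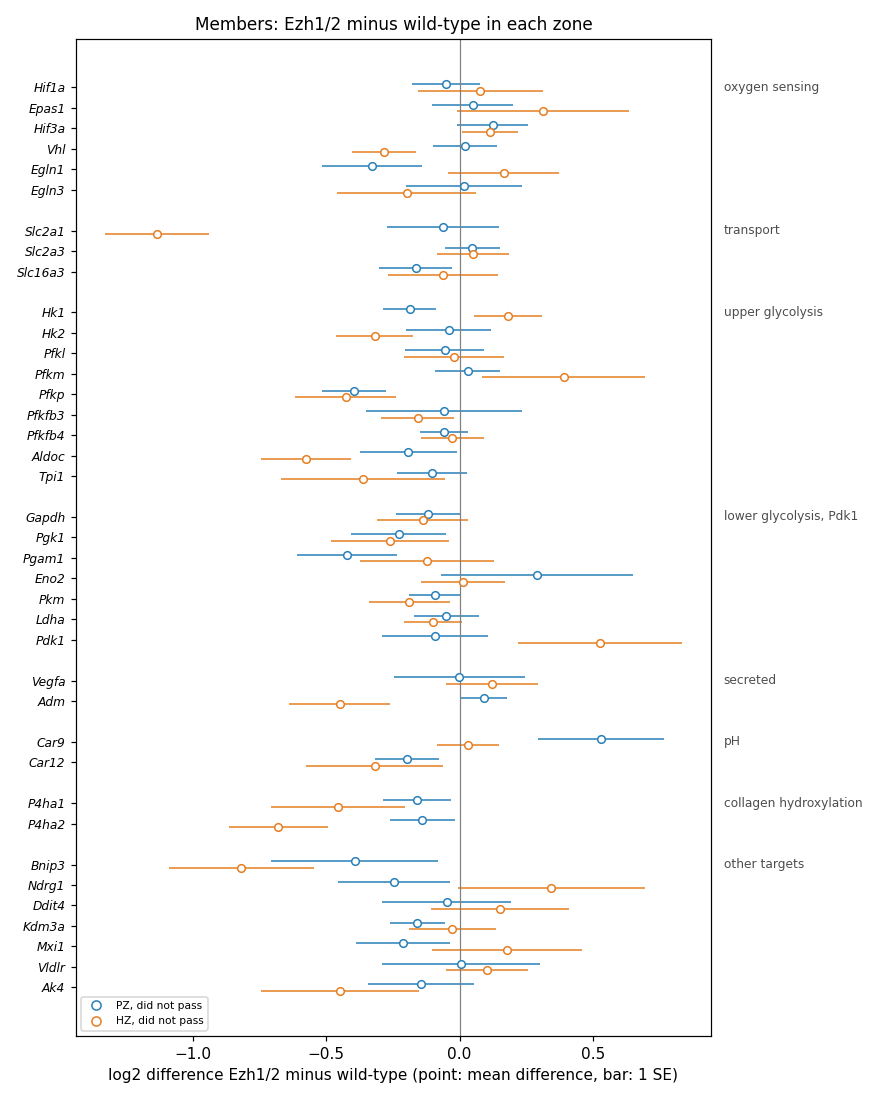
Difference between the genotypes, Ezh1/2 minus wild-type as labelled, on the log2 scale for the 38 measured genes in the PZ (blue) and the HZ (orange), with 6 arrays in each group. Points are mean differences and bars 1 standard error, no point passed the limma test, and Slc2a1 in the HZ lies furthest from 0 at -1.13.

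Slc2a1 had the lowest p of these genes in the HZ. Every HZ array labelled Ezh1/2 (7.83 to 8.91) lay below every wild-type HZ array (9.11 to 9.69), which gives an exact permutation p of 0.00216, the smallest that 6 against 6 arrays allow. The difference was -1.13 (standard error 0.19, 2.19-fold lower, limma adjusted p = 0.165). It was the single gene of the 38 that passed an unadjusted p under 0.001 with a fold change over 1.3, the thresholds of the study's methods, by which 0.108% of all genes were lower. It also passed in a fit over all 24 arrays, in which the zones share 1 estimate of the spread (adjusted p = 0.0122). The second probe set of Slc2a1 had -0.57 (standard error 0.17, adjusted p = 0.443). Leaving out each array in turn gave -1.26 to -1.04 with adjusted p of 0.0675 to 0.329.

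P4ha2 also had no overlap in the HZ, with 5.22, 6.03 and 6.35 on the arrays labelled Ezh1/2 against 6.40, 6.55 and 6.88 (-0.68, standard error 0.19, adjusted p = 0.412, exact permutation p = 0.00216). The exact p of Slc2a1 and P4ha2 are not adjusted for the choice of the genes with the lowest p. The share of all genes without overlap is not given here, so the separation adds no evidence beyond the adjusted p. Aldoc was at 4.11, 4.43 and 5.11 against 4.81, 5.04 and 5.34 (-0.58, adjusted p = 0.441, exact permutation p = 0.00866), and 1 array labelled Ezh1/2, number 5, lay within the wild-type range. Bnip3 was at 5.49, 5.83 and 6.96 against 6.13, 6.86 and 7.29 (-0.82, adjusted p = 0.54, exact permutation p = 0.0281) and Adm at 5.29, 5.68 and 6.50 against 5.84, 6.18 and 6.53 (-0.45, adjusted p = 0.708, exact permutation p = 0.0519). The groups of both overlapped. The differences of Vegfa, Pgk1 and Ldha were 0.12, -0.26 and -0.10 (standard errors 0.17, 0.22 and 0.11) with overlapping groups.

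**Figure D4:**
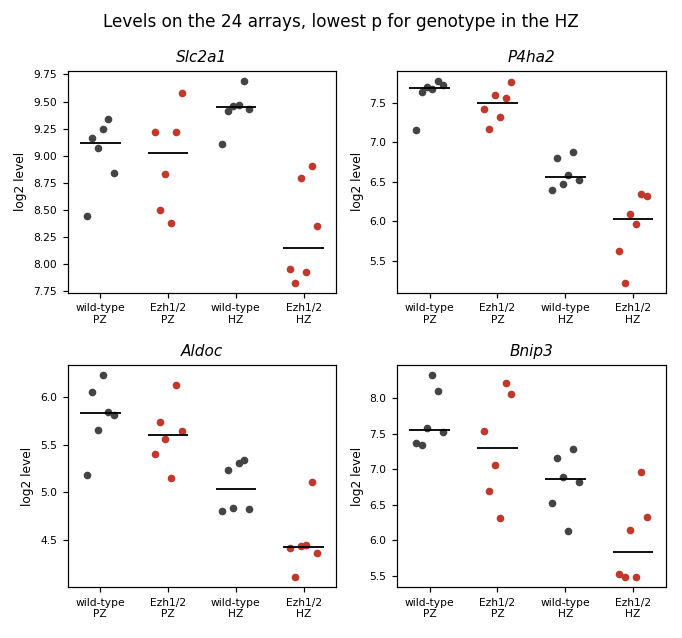
Log2 levels of the 4 genes with the lowest p between the genotypes in the HZ, on the 24 arrays by genotype and zone. Each point is 1 array and each line the median of 6, and in the HZ the arrays labelled Ezh1/2 lie apart from the wild-type arrays for Slc2a1 and P4ha2 and overlap them for Aldoc and Bnip3.

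Between the group means, markers of the tissue differed along with these values in the HZ. All 9 chondrocyte markers were lower on the arrays labelled Ezh1/2, 5 of them at an unadjusted p under 0.05 and none after adjustment, with a median of -0.42 and list means of 9.23 to 10.3 against 9.88 to 10.6. All 8 skeletal muscle markers were higher, with a median of 1.03 and list means of 4.49 to 9.64 against 4.70 to 7.99, and all 6 perichondrium and fibroblast markers were higher, with a median of 0.47. The muscle means of the HZ arrays labelled Ezh1/2 were 4.49, 4.73 and 4.90 on numbers 1, 2 and 5. On numbers 3, 4 and 6 they were 8.32, 9.64 and 8.78. The mean of the 3 transporters, which is not Slc2a1 alone, was lowest on numbers 1 and 2 (5.44 and 5.34), where the muscle means were low. Number 2 had the lowest chondrocyte mean (9.23) and the highest endothelial and osteoclast means (6.59 and 7.16) of all arrays. On number 1 the endothelial and osteoclast means were 6.04 and 6.72, below those of number 6 (6.40 and 6.92), where the transporter mean was 5.80. The chondrocyte mean of number 1 lay above those of numbers 2, 3 and 6. All 6 osteoclast markers were higher too, 2 of them at an unadjusted p under 0.05, with a median of 0.36, and 6 of 7 endothelial markers, with a median of 0.32. No marker of these 5 lists passed the test, and the part of these cells in the lower levels of Slc2a1 and P4ha2 was not tested.

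No gene outside the 42 in the related lists passed the genotype tests within a zone either. In the HZ 1 of the 19 further glycolysis genes was higher on the arrays labelled Ezh1/2 in the fit over all 24 arrays and 1 at the thresholds of the study's methods, and in the PZ 1 of the 43 further hypoxia genes was lower without wild-type array number 1. In the HZ Ldhb, the lactate dehydrogenase subunit of oxidative tissues, was the furthest by p, with 0.90 (standard error 0.16, adjusted p = 0.186). Among the further hypoxia genes Pdk2 had 0.65, Ppp1r3c, a glycogen-targeting subunit, 0.74 and the lysyl oxidase Lox 0.76 (adjusted p = 0.445, 0.512 and 0.52), all higher, and Pygl had -0.53 (adjusted p = 0.54). In the PZ Adpgk had -0.28 (adjusted p = 0.453), Ppp1r3c 0.52 and Cited2 -0.44 (adjusted p = 0.52 and 0.565).

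Whether the genotype difference differed between the zones was tested directly, as the change of Ezh1/2 minus wild-type from PZ to HZ. None of the 38 genes passed in either direction, against 0.0180% of all genes upward and 0.0225% downward. At an unadjusted p under 0.05, 1 gene was higher and 3 were lower, against 2.93% and 3.20% of all genes. Slc2a1 had -1.07 (standard error 0.30, limma adjusted p = 0.373), and with its second probe set -0.34 (standard error 0.26). Adm had -0.54 (adjusted p = 0.753), P4ha2 -0.54 (adjusted p = 0.817), Hk1 0.37 (adjusted p = 0.819) and Car9 -0.50 (adjusted p = 0.907). The second probe set of Mxi1 had 0.53 (standard error 0.17, adjusted p = 0.505). For Egln3, Ak4 and Kdm3a, called in 1 of the 2 genotypes in the zone comparison, the values were -0.21, -0.30 and 0.13 with standard errors of 0.35, 0.37 and 0.19.

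Within the groups the genes varied together to a limited degree. After the mean of each group was subtracted, the median Pearson correlation over the 24 arrays was 0.16 for the 703 pairs of the 38 genes and -0.03 between these genes and all others, and 90 pairs exceeded 0.5. The points share an array, its RNA quality and its dissection. The closest pairs were Slc16a3 and Tpi1 (0.88), Slc2a1 and Bnip3 (0.82), Hif1a and Pgam1 (0.80) and the collagen hydroxylases P4ha1 and P4ha2 (0.77). Bnip3 and Slc2a1 had the highest median correlation to the other genes (0.42 and 0.40). Of the genes that rose from PZ to HZ in both genotypes, Adm, Vegfa and Ddit4 had 0.20, 0.19 and 0.18 and Epas1 and Mxi1 0.05 and 0.01, and the lowest were Hif3a and Slc2a3 at -0.14 and -0.08.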

How the data were processed

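The authors imported Affymetrix Mouse Gene 2.0 ST arrays into Partek Genomics Suite, applied its RMA workflow with default settings (background correction, normalization and probe summary), and the deposited table holds the resulting log2 values of 41345 probe sets on 24 arrays. The scanner files were not used here, and such values do not say which probe sets are above background. The number of arrays, 6 in a group, limits the precision. Gene names came from the platform's annotation table, which gives 1 symbol for 23521 probe sets, several for 1820 and none for 16004.

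The genotype tests used the 12 arrays of 1 zone at a time, and the zone tests and the test of the difference between zones used 1 fit of 4 group means over all 24 arrays, with limma 3.58.1 in R 4.3.3 and p-values adjusted over every probe set (Benjamini-Hochberg, two-sided), called at an adjusted p under 0.05. For single genes all 924 ways to split 12 arrays into 6 and 6 gave a two-sided exact permutation p, which is not adjusted over genes. The scripts were tested on simulated data with known changes, of which the smaller were often not called. Genes given with their lowest, median and highest array were Slc2a1, Vegfa, Pgk1 and Ldha and, for each comparison, up to 6 calls with the largest change in each direction or the 5 lowest p, and other genes are given by their difference. Other values given with them, for Hif1a, Pfkp and Bnip3 among others, were chosen after they were seen.

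The 42 genes and the other lists were chosen with earlier results of these data known, so no p is given for a list. The 24 arrays came from 12 mice, but the labels do not tie arrays to mice. Replicate numbers did not meet the criterion for pairing the zones (every same-numbered correlation over 0.1) in either genotype, and in wild-type mice the sex-linked genes of numbers 3 and 5 disagree between the zones. Alternatives were another fit, block, threshold, probe set rule, filter, scaling or weighting, and leaving out arrays.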

Additional observations from a re-analysis of the deposited data

Results flagged for a closer look

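In 16 of 152 sets of 6 arrays (38 genes in 4 groups) 1 array lay far from the other 5 by Dixon's criterion, which chance alone meets in about 1 of 20 sets, or 7.6 sets here. Array number 1 of the wild-type PZ was the lowest in 8 of them. There Hif1a was 7.78 (nearest other array 8.39), Egln1 6.77 (7.62), Slc16a3 6.06 (6.48), Pgk1 8.07 (8.85), Pgam1 8.28 (8.94), P4ha1 8.59 (9.0), P4ha2 7.15 (7.63) and Ak4 5.03 (5.88). The same array had the highest endothelial list mean of its group, 4.91 against 3.68 to 3.96 on the other 5. It was also highest for the perichondrium and fibroblast (7.29), osteoblast (7.23), osteoclast (5.98) and myeloid (5.68) lists. For skeletal muscle number 6 was higher (7.97 against 7.54). The chondrocyte list was lowest on number 1, at 10.70. Without array number 1, 5 of the 38 genes rose and 21 fell from PZ to HZ in wild-type mice, against 19% and 18.1% of all genes. The median genotype difference in the PZ was then -0.15.

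The other 8 were spread over the groups. In the wild-type HZ, Epas1 was 6.42 on number 1 (7.66), Vhl 5.29 on number 4 (4.93) and Vldlr 5.16 on number 5 (4.70). In the wild-type PZ, number 5 had 6.43 for Hk2 (5.98) and 7.01 for Pfkp (6.64). Among the arrays labelled Ezh1/2, Aldoc was 5.11 on HZ number 5 (4.45), Gapdh 10.5 on PZ number 2 (10.8) and Eno2 6.03 on PZ number 1 (4.37).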

How the results depend on the processing

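Under the alternatives run, the counts of genes called kept within 1.5 times of the values above, with these exceptions. In the HZ, 1 gene (Slc2a1) was lower on the arrays labelled Ezh1/2 in a fit over all 24 arrays, and 1 at an unadjusted p under 0.001 with a fold change over 1.3. Under that threshold 3 genes rose in wild-type from PZ to HZ, and 8 after quantile normalization, which also moved the median in Ezh1/2 mice to -0.46. Over all genes 8.21% rose in wild-type under that threshold and 15.6% after quantile normalization. The small genotype medians moved by over 1.5 times. That of the PZ was -0.0431 after quantile normalization and -0.12 with array weights. It was -0.15 without wild-type PZ number 1 or Ezh1/2 PZ number 6, -0.13 and -0.12 without Ezh1/2 PZ number 1 and 5, and -0.05 without wild-type or Ezh1/2 PZ number 4. That of the HZ was -0.13 among brighter probe sets and -0.03 without wild-type HZ number 5. The difference of Vegfa in the PZ, near 0, turned to 0.0437 after quantile normalization. Without each array in turn it ran from -0.15 to 0.11, that of Slc2a1 in the PZ from -0.19 to 0.0537 and that of Ldha in the PZ from -0.12 to 0.0103.

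Replicate numbers were not taken to pair the samples, since not every same-numbered correlation exceeded 0.1. Between the zones these ran from -0.13 to 0.28 in wild-type, where 3 of 6 arrays correlated best with their own number, and from 0.07 to 0.19 in Ezh1/2 mice, where 5 of 6 did, a hint from the data and not from the design. With the number as a random block (correlation 0.0966) the median zone difference was -0.56 in wild-type and -0.69 in Ezh1/2 mice, with 6 genes rising and 20 falling, and 6 rising and 22 falling. Over all genes 21.6% rose and 19% fell in wild-type and 19.1% and 17.7% in Ezh1/2 mice. As a fixed block the replicate number left 0 calls in either genotype comparison. With the block and wild-type numbers 3 and 5 left out, the fall of Bnip3 in wild-type did not pass (adjusted p = 0.051).

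Without HZ arrays wild-type 1, wild-type 4 and Ezh1/2 1, whose values span a narrow range, 5 genes rose and 19 fell in wild-type and 6 and 22 in Ezh1/2 mice. Over all genes 13.7% rose and 15.1% fell in wild-type and 17.4% and 16.3% in Ezh1/2 mice. The falls of Bnip3 and Vldlr in wild-type and of Slc2a1 in Ezh1/2 mice did not pass (adjusted p = 0.167, 0.0539 and 0.0522). The causes were not tested.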
